A study of Mus musculus with 9 samples.

Results

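The genes described here encode the histone variant H3.3 and factors that take part in placing it on chromatin. They were taken as the rows of the deposited expression files whose symbol was *H3f3a*, *H3f3b*, *Hira*, *Ubn1*, *Ubn2*, *Cabin1*, *Asf1a*, *Daxx* or *Atrx*, which gave 9 of 55335 rows, 1 row for each gene. RNA came from pools of ICR mouse embryos that received siRNA as zygotes and were cultured to the 8-cell stage. The siRNA was nontargeting in control, aimed at both *H3f3a* and *H3f3b* in H3.3-KD, and aimed in MFN1-KD at *Mfn1*, which encodes a mitochondrial fusion GTPase. Each group had 3 libraries. The labels give 5 to 10 embryos per group and the study's methods give 10, and nothing says that the libraries of a group came from separate collections, so p-values measure the spread between these libraries, which may be technical. Smart-Seq2, the method used, copies polyadenylated RNA from an oligo-dT primer and amplifies it by PCR. The values are FPKM, that is, fragments scaled to the length of the gene and to the size of the library. siRNA lowers RNA and does not delete the genes, protein was not measured in these files, and in pooled embryos fewer cells expressing a gene and less of its RNA per cell cannot be told apart.

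H3.3 differs from the replication-coupled histones H3.1 and H3.2 in that it is made and deposited throughout the cell cycle. Its genes have introns and polyadenylated transcripts, and *H3f3a* and *H3f3b* encode the same protein. HIRA, UBN1 or its paralog UBN2, and CABIN1 form a complex that deposits H3.3 at active genes and, after fertilization, on the paternal genome. ASF1A hands H3-H4 dimers to that complex, whereas DAXX together with the ATPase ATRX deposits H3.3 at telomeres, pericentromeric repeats and other silent regions.

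The first 150 bases of each coding sequence are printed because they show how far reads of the 2 targeted genes, and of a close copy, can be told apart. Sequences are from GENCODE release M21 on GRCm38, start at the start codon, and carry in capitals each base that differs from *H3f3a*. They are copied below in the order *H3f3a*, *H3f3b* and *H3f3c*, an annotated processed pseudogene.
H3f3a: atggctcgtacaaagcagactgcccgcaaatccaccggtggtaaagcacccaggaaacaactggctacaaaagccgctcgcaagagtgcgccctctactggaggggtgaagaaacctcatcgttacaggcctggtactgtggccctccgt
H3f3b: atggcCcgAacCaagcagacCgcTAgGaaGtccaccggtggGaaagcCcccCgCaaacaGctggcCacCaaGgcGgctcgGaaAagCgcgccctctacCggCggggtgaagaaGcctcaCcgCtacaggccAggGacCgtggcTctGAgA
H3f3c: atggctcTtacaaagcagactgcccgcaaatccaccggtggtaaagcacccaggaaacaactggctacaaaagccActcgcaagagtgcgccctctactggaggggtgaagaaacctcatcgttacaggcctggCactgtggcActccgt
Over the whole coding sequence of 411 bases, *H3f3a* and *H3f3b* differed at 95 bases, of which 81 were at the third position of a codon, and the longest stretch they shared was 23 bases. *H3f3c* differed from *H3f3a* at 4 bases and shared an unbroken stretch of 267 bases with it. Windows of 150 bases, the read length, were then compared with all annotated transcripts. Of those of *H3f3b*, 0.0978% were also found in another gene. For *H3f3a* the share was 16.3%, made up mainly of 12.9% in Gm17275, a non-coding gene annotated across the same bases on the other strand and not analysed here, and 3.08% in *H3f3c*. In the reverse direction, 45.0% of the windows of *H3f3c* were found in *H3f3a*. At this length *H3f3a* and *H3f3b* can be told apart by sequence, whereas *H3f3c* cannot be fully told apart from *H3f3a*.

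The other members had few shared windows with 3 exceptions. The share was 37.0% for *Hira*, all of it in Gm28539, an annotated read-through transcript over the same exons that was listed at 0 FPKM in all 9 libraries. It was 34.8% for *Asf1a*, all of it in *Mcm9*, which overlaps *Asf1a* on the other strand and was at 2.11 to 4.81 FPKM. It was 1.46% for *Ubn2*, in *Hipk2*. No window of *Ubn1*, *Cabin1*, *Daxx* or *Atrx* was found in another gene.

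The number of genes above 0 FPKM was 21643 to 22507 in control, 23655 to 24820 in H3.3-KD and 15577 to 20842 in MFN1-KD. The lowest, MFN1-KD replicate 3, stood apart and is named wherever a value rests on it. From the step between the lowest values of genes of 700 to 1500 bases, a single fragment was worth roughly 0.0467 to 0.0634 FPKM for a gene of 1000 bases, the highest and thus shallowest being MFN1-KD replicate 3. The lowest value of any member, *Hira* in MFN1-KD replicate 3, rested on roughly 113 fragments. These are estimates, because the gene lengths behind the deposited values are not given in the sources used here. The embryo markers *Dppa3* and *Dppa5a* were at 4085 FPKM or more in every library, and the 10 embryo markers summed to 21123 to 28052 FPKM in control, 10571 to 14266 in H3.3-KD and 28873 to 35058 in MFN1-KD, nearly all of it from that pair. Both were called lower in H3.3-KD, whereas *Pou5f1* (mean 7.24 FPKM in control and 262 in H3.3-KD), *Klf5*, *Tfap2c* and *Cdx2* of the same list were called higher. *Sox2* and *Cdx2* were at or below 0.1 FPKM in control. The 7 oocyte markers summed to 24.4 to 49.5 FPKM over all libraries and the 4 sperm markers to at most 2.93. Of 8 cumulus and granulosa markers *Fshr* was at 0 in all libraries, 6 stayed below 1 FPKM, and *Amhr2* was at 16.1 to 29.8 FPKM in control, 38.0 to 66.1 in H3.3-KD and 10.2 to 19.3 in MFN1-KD. The 5 markers of the 2-cell stage summed to 19.2 to 23.9 FPKM in control, 217 to 513 in H3.3-KD, mostly *Tdpoz4*, and 15.4 to 60.6 in MFN1-KD. The part of these marker shifts in the results was not tested.

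In control embryos the H3.3 genes were among the most abundant transcripts and the chaperones spanned a wide range. *H3f3b* lay above 99.6% to 99.7% of the genes detected in a library and *H3f3a* above 99.4%, while *Cabin1*, the lowest member, lay above 61.5% to 64.6%. By mean FPKM the order in control was *H3f3b* at 2988 ± 154 (SD, n = 3, as for all group means here), *H3f3a* at 1932 ± 293, *Atrx* at 111 ± 33.3, *Asf1a* at 110.4 ± 5.53, *Hira* at 11.4 ± 1.50, *Daxx* at 8.93 ± 1.07, *Ubn1* at 7.08 ± 3.29, *Ubn2* at 4.30 ± 2.88 and *Cabin1* at 3.50 ± 0.645. Ranges of neighbours in this order overlapped for *Atrx* and *Asf1a*, and for each pair from *Daxx* down. *Asf1a* thus stood above the 4 genes of the HIRA complex, and *Atrx* stood above its partner *Daxx* by 9.55 to 16.2 times within the control libraries.

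**Figure D1:**
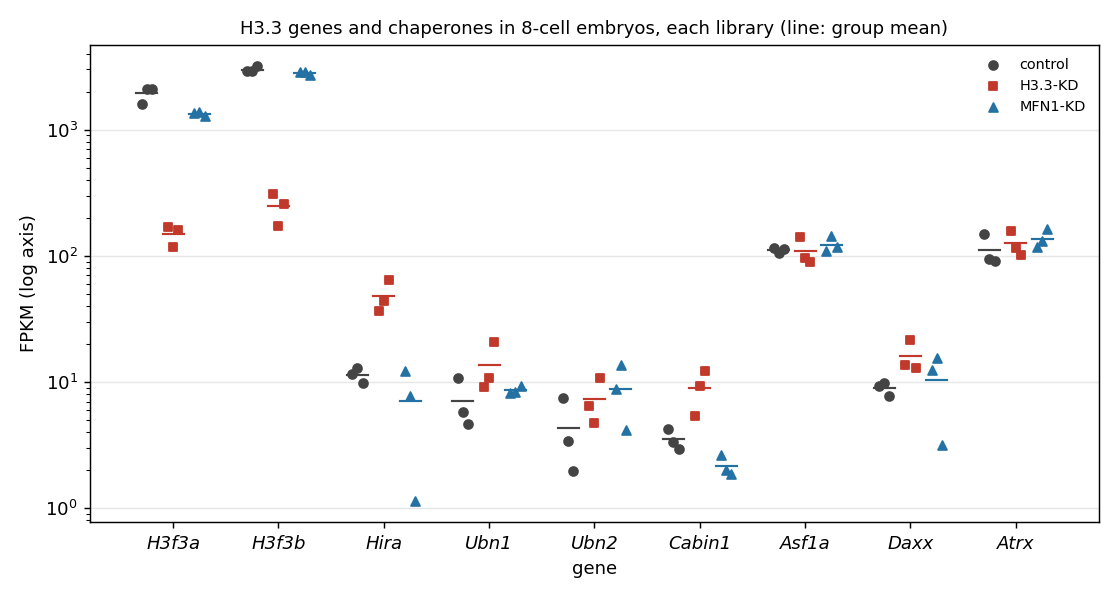
FPKM on a log axis (vertical) of the 9 genes (horizontal) in each library of control (circles), H3.3-KD (squares) and MFN1-KD (triangles), with a line at each group mean. *H3f3a* and *H3f3b* lie at 1288 FPKM or more in control and MFN1-KD and between 117 and 311 FPKM in H3.3-KD, and *Hira* lies at 36.3 to 63.9 FPKM in H3.3-KD and at 1.15 to 12.9 FPKM elsewhere.

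The targeted genes were the first check of the labels. *H3f3a* (ENSMUSG00000060743.12, chr1:180800832-180813943 of GRCm38, minus strand) was at 1594, 2092 and 2110 FPKM in the control libraries and at 170, 117 and 161 FPKM in the H3.3-KD libraries. *H3f3b* (ENSMUSG00000016559.14, chr11:116021912-116027962, minus strand) was at 2903, 2895 and 3166 FPKM in control and at 311, 171 and 257 FPKM in H3.3-KD. Every H3.3-KD library lay far below every control library for both genes, and replicate 2 was the lowest for both. The sum of the 2 transcripts, which may be added because FPKM is per length, was 4497, 4987 and 5276 FPKM in control and 480, 288 and 418 FPKM in H3.3-KD, or 8.04% ± 1.99 of the control mean. *H3f3b* made up 60.9% ± 3.34 of the sum in control and 61.9% ± 2.65 in H3.3-KD, with overlapping ranges. *H3f3a* in H3.3-KD still lay above 94.8% to 96.1% of detected genes, overlapping the most abundant chaperones *Atrx* (94.0% to 95.8%) and *Asf1a* (93.2% to 95.3%), and *H3f3b* lay above 96.3% to 97.8%. The ratio of H3.3 transcripts to the summed FPKM of the 7 chaperones was 14.6 to 23.0 in control and 0.959 to 1.34 in H3.3-KD.

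In MFN1-KD both H3.3 genes were lower in FPKM than in every control library. So were 16.8% of all genes averaging 1 FPKM or more. The separation of the H3.3 genes depended on the scaling of the libraries. *H3f3a* was at 1349, 1371 and 1288 FPKM, or 69.1% of the control mean, and *H3f3b* at 2831, 2836 and 2695 FPKM, or 93.3%. The sum was 4180, 4207 and 3983 FPKM, or 83.8% ± 2.49 of control, with the highest MFN1-KD library at 85.5% and the lowest control library at 91.4%. With median-ratio scaling the MFN1-KD and control ranges overlapped for *H3f3a* (1307 to 1693 against 1526 to 2437), *H3f3b* (2704 to 3541 against 2780 to 3656) and the sum (4011 to 5234 against 4306 to 6093). With upper-quartile scaling *H3f3b* and the sum overlapped and *H3f3a* did not. *H3f3a* was further below its control mean than *H3f3b*, so the *H3f3b* share was higher than in control. It was 67.6% ± 0.170 in MFN1-KD, and its range of 67.4% to 67.7% lay above the 58.1% to 64.6% of control. The share is a ratio within each library, so it does not depend on how the libraries are scaled. No test of the sum or the share was made.

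**Figure D2:**
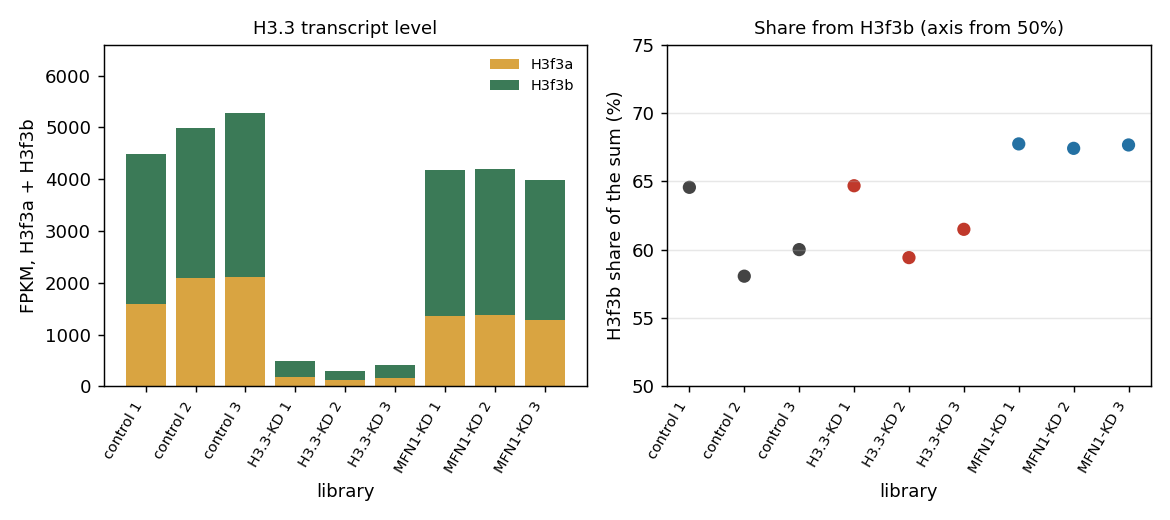
Left, stacked FPKM of *H3f3a* and *H3f3b* (vertical) in each library (horizontal); right, the percent of that sum from *H3f3b*, on an axis that starts at 50%, with grey, red and blue points for control, H3.3-KD and MFN1-KD. The sum is 288 to 480 FPKM in H3.3-KD and 3983 to 4207 FPKM in MFN1-KD beside 4497 to 5276 FPKM in control, and the 3 MFN1-KD libraries have the highest shares.

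To compare the groups across all genes, a linear model was fitted with limma to log2(FPKM + 1) of the 13011 genes that averaged 1 FPKM or more, and p-values were adjusted by the method of Benjamini and Hochberg over all of them. All 9 members passed that filter. A gene was called at an adjusted p under 0.05. Fold changes are on the log2(FPKM + 1) scale, which understates changes of low genes. In H3.3-KD against control 2 of 9 members were called lower, beside 9.12% of all genes tested, and 2 were called higher, beside 21.8% of all genes. The 2 lower members were the siRNA targets. *H3f3a* had a log2 fold change of -3.69 (SE 0.20) and *H3f3b* one of -3.64 (SE 0.21), and they ranked 54 and 56 from the lowest of the 13011 genes. The 2 higher members, *Hira* and *Cabin1*, are a share of the members that is near the background. By ranges, 2 members lay entirely below control beside 18.9% of all genes, and 3 (*Hira*, *Cabin1* and *Daxx*) lay entirely above control beside 34.5%. Over all genes the median log2 fold change was 0.26, and scaling the libraries by median ratios or upper quartiles moved it to -0.01 and -0.09. Changes relative to that median are therefore given as well. They were -3.95 for *H3f3a* and -3.90 for *H3f3b*.

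The members of the HIRA complex were all higher in mean in H3.3-KD, and 2 of the 4 were called, beside 21.8% of all genes called higher and a median log2 fold change of 0.26 over all genes. *Hira* (ENSMUSG00000022702.16, chr16:18877037-18970309, plus strand), the histone-binding scaffold of the complex, was at 11.5, 12.9 and 9.88 FPKM in control and at 36.3, 43.6 and 63.9 FPKM in H3.3-KD. Each H3.3-KD library was above each control library, and the group mean was 4.20 times that of control. The log2 fold change was 1.95 (SE 0.57, 95% interval 0.69 to 3.20, adjusted p = 0.0252, limma), or 1.69 relative to the median of all genes, above that of 91.8% of the genes tested. *Cabin1* (ENSMUSG00000020196.10, chr10:75646112-75764341, minus strand), a calcineurin-binding scaffold protein of the complex, was at 4.22, 3.32 and 2.97 FPKM in control and at 5.38, 9.27 and 12.2 FPKM in H3.3-KD. The groups did not overlap, and the log2 fold change was 1.09 (SE 0.35, 95% interval 0.32 to 1.86, adjusted p = 0.0363), or 0.83 relative to the median.

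*Ubn1* (ENSMUSG00000039473.8, chr16:5050057-5086289, plus strand), whose product binds H3.3 directly, was at 10.8, 5.81 and 4.61 FPKM in control and at 9.09, 10.8 and 20.6 FPKM in H3.3-KD. Control replicate 1 lay within the range of H3.3-KD, and the log2 fold change of 0.84 (95% interval -0.01 to 1.69) did not pass the test (adjusted p = 0.123). Its paralog *Ubn2* (ENSMUSG00000038538.17, chr6:38433950-38524825, plus strand) was at 7.51, 3.42 and 1.96 FPKM in control and at 6.47, 4.71 and 10.7 FPKM in H3.3-KD, with overlapping ranges and a log2 fold change of 0.72 (95% interval -0.40 to 1.84, adjusted p = 0.306). The ratio of *Ubn1* to *Ubn2* was similar in both groups, 1.44 to 2.35 in control and 1.40 to 2.30 in H3.3-KD. *Hira* stood out within the complex by ratios that are free of library scaling. The ratio of *Hira* to *Ubn1* was 1.06 to 2.22 in control and 3.10 to 4.02 in H3.3-KD, and that of *Hira* to *Cabin1* was 2.72 to 3.88 in control and 4.70 to 6.75 in H3.3-KD. Both ratios were picked once their values had been seen.

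The calls of *Hira* and *Cabin1* were near the threshold. *Hira* was called in 9 of 18 alternative analyses, with an adjusted p of 0.000401 to 0.168, and *Cabin1* in 6 of 17, with 0.00347 to 0.760. For *Hira* the adjusted p was 0.0639, 0.0601 and 0.0873 on omission of control replicate 1, 2 or 3, and 0.0593 and 0.0868 on omission of H3.3-KD replicate 2 or 3, whereas it was 0.000766 without MFN1-KD replicate 3, which enters through the shared estimate of the spread. For *Cabin1* it was 0.0520, 0.111 and 0.123 when those control libraries were left out and 0.109 and 0.120 when those H3.3-KD libraries were. In a limma fit of only the 2 groups compared, the adjusted p was 0.00103 for *Hira* and 0.0300 for *Cabin1*. Both log2 fold changes were smaller after removal of the trend of each library over transcript GC content and length, 1.07 for *Hira* (adjusted p = 0.168) and 0.15 for *Cabin1* (adjusted p = 0.760). The longest transcripts of *Hira*, *Cabin1*, *Daxx* and *Ubn1* were 53.8%, 56.6%, 56.3% and 52.4% GC, and those of the other 5 members were 38.6% to 43.4% GC. The part of GC content or length in the changes of these genes was not tested. The calls of *H3f3a* and *H3f3b* held in all 18 alternatives.

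**Figure D3:**
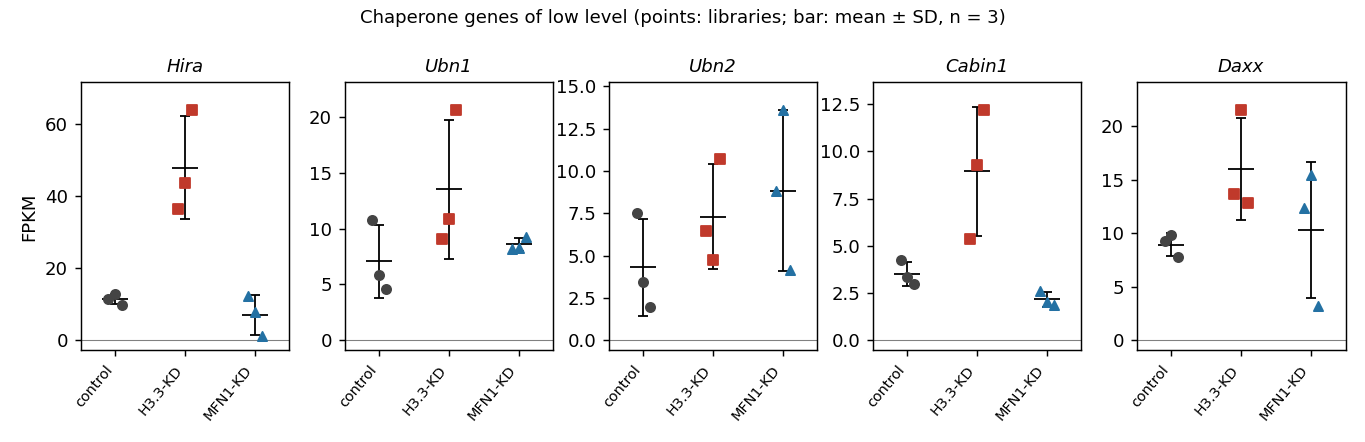
FPKM (vertical, a linear axis for each gene) of the 5 less abundant chaperone genes in each library, grouped by treatment (horizontal), with the mean and SD of 3 libraries in black. *Hira* in H3.3-KD (36.3 to 63.9 FPKM) lies clear of control (9.88 to 12.9 FPKM), *Cabin1* and *Daxx* lie above control by less, and MFN1-KD replicate 3 is low for *Hira* (1.15 FPKM) and *Daxx* (3.16 FPKM).

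*Asf1a* and the DAXX-ATRX pair were not called in H3.3-KD. *Asf1a* (ENSMUSG00000019857.7, chr10:53596757-53609225, plus strand) was at 115, 104 and 112 FPKM in control and at 140, 95.4 and 89.2 FPKM in H3.3-KD, which lay on both sides of control. The log2 fold change was -0.06, with a 95% interval of -0.57 to 0.45 and an adjusted p of 0.879. *Atrx* (ENSMUSG00000031229.16, chrX:105797615-105929403, minus strand) was at 149.6, 93.6 and 90.3 FPKM in control and at 158, 115 and 102 FPKM in H3.3-KD, and its log2 fold change was 0.18 (95% interval -0.41 to 0.78, adjusted p = 0.641), and its sign turned under both scalings, to -0.15 and -0.24. *Daxx* (ENSMUSG00000002307.16, chr17:33909414-33915590, plus strand) was at 9.25, 9.80 and 7.73 FPKM in control and at 13.7, 21.5 and 12.8 FPKM in H3.3-KD. Its groups did not overlap, yet the log2 fold change of 0.75 (SE 0.48, 95% interval -0.31 to 1.81) did not pass the test (adjusted p = 0.263). With upper-quartile scaling the groups overlapped, and with the GC and length trend removed the log2 fold change turned to -0.36. *Daxx* varied from 3.16 to 15.4 FPKM within MFN1-KD, which shares the estimate of the spread. Without MFN1-KD replicate 3 the standard error was 0.28 and the adjusted p was 0.0569, and over 18 alternatives the adjusted p ranged from 0.0195 to 0.588.

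**Figure D4:**
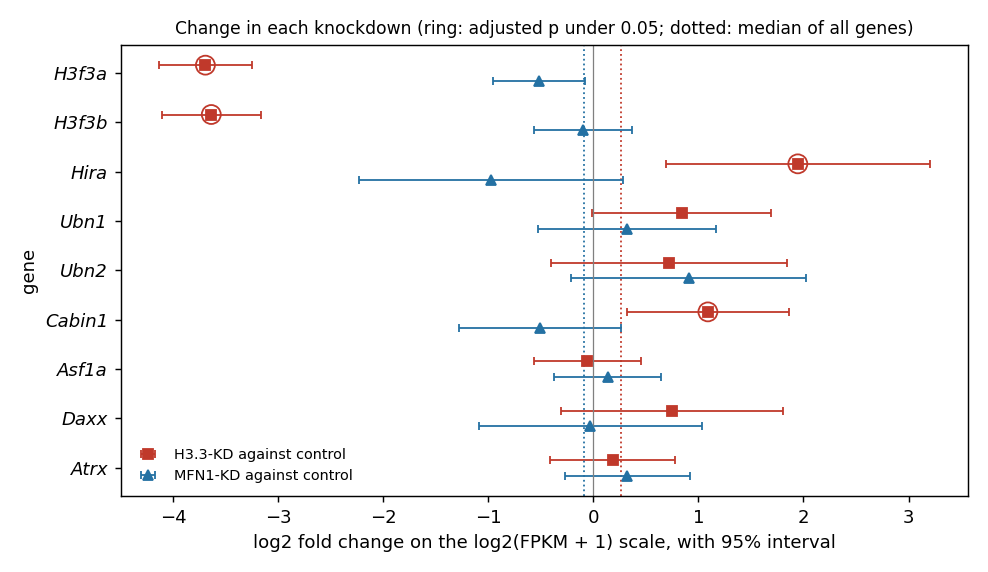
Log2 fold change on the log2(FPKM + 1) scale (horizontal) of each gene (vertical) in H3.3-KD (squares) and MFN1-KD (triangles) against control, with 95% intervals, rings around changes with an adjusted p under 0.05, and dotted lines at the median of all genes (0.26 and -0.08). Rings mark *H3f3a*, *H3f3b*, *Hira* and *Cabin1* in H3.3-KD and no gene in MFN1-KD.

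In MFN1-KD against control none of the 9 members was called by limma in either direction, beside 1.15% of all genes called higher and 2.2% called lower. At an unadjusted p under 0.05 there was 1 member, *H3f3a*, with a log2 fold change of -0.52 (SE 0.20, 95% interval -0.96 to -0.08). Its adjusted p was 0.153, and 0.0680 to 0.394 over 18 alternatives. By ranges, no member lay entirely above control, beside 11.4% of all genes, and 3 lay entirely below control (*H3f3a*, *H3f3b* and *Cabin1*), beside 16.8%. *H3f3b* had a log2 fold change of -0.10 (95% interval -0.57 to 0.37, adjusted p = 0.821). The median of all genes was -0.08. *Mfn1* itself (ENSMUSG00000027668.13, chr3:32529465-32579239, plus strand) was at 22.6 to 51.6 FPKM in control and at 1.15 to 9.54 FPKM in MFN1-KD, and its log2 fold change was -2.66 (adjusted p = 0.0432), and its adjusted p ranged from 0.0244 to 0.158 over the alternatives. The lowest value was that of MFN1-KD replicate 3, without which the log2 fold change was -2.05 (adjusted p = 0.0706).

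Of the chaperones in MFN1-KD, *Cabin1* was at 2.62, 2.00 and 1.88 FPKM, all below control, with a log2 fold change of -0.51 (95% interval -1.28 to 0.26, adjusted p = 0.417). *Hira* was at 12.2, 7.77 and 1.15 FPKM, and its log2 fold change of -0.97 (adjusted p = 0.336) rested on replicate 3, being -0.20 without it (adjusted p = 0.787, beside 0.130 to 0.787 over 18 alternatives). *Ubn1* was at 8.20, 8.29 and 9.25 FPKM, within the range of control. *Ubn2* was at 8.80, 13.6 and 4.13 FPKM and had the highest positive log2 fold change of the members, 0.91 (95% interval -0.21 to 2.03, adjusted p = 0.314). *Asf1a* was at 108, 142 and 116 FPKM and *Atrx* at 118, 130 and 162 FPKM, with log2 fold changes of 0.14 and 0.32 (adjusted p = 0.762 and 0.506). *Daxx* was at 12.4, 15.4 and 3.16 FPKM, a log2 fold change of -0.03 with all 3 libraries and of 0.58 without replicate 3 (adjusted p = 0.988 and 0.340, beside 0.340 to 1.0 over 18 alternatives). The 95% intervals of the 7 chaperones all included 0 and were wide, reaching from -2.23 for *Hira* to 2.03 for *Ubn2*, so they do not show that the levels were equal to control.

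Both knockdowns were set against the same control libraries, so they were also compared with each other directly. In MFN1-KD against H3.3-KD 2 of 9 members were called higher, beside 11% of all genes, and 2 were called lower, beside 27.6%. By ranges, 2 members lay entirely above H3.3-KD, beside 14.8% of all genes, and 2 entirely below, beside 33.1%. The higher members were *H3f3a* with a log2 difference of 3.17 (SE 0.20, adjusted p = 1.31e-05) and *H3f3b* with one of 3.54 (SE 0.21, adjusted p = 1.28e-05). The lower members were *Hira* with a log2 difference of -2.92 (SE 0.57, adjusted p = 0.00273) and *Cabin1* with one of -1.60 (SE 0.35, adjusted p = 0.00500). The median of all genes was -0.39, relative to which *Hira* differed by -2.53 and *Cabin1* by -1.20. *Hira* was called in all 18 alternatives, with an adjusted p of 0.000855 to 0.0192, and its log2 difference was -2.15 without MFN1-KD replicate 3. *Cabin1* was called in 16 of 17, and not with the GC and length trend removed, where the log2 difference was -0.71 (adjusted p = 0.108, beside 0.00420 to 0.108 over all alternatives). The other 5 chaperones had adjusted p-values of 0.224 to 0.800, and of these *Asf1a* was called in 1 of 18 alternatives, upper-quartile scaling, with a log2 difference of 0.68 (adjusted p = 0.0361, beside 0.0361 to 0.952 over all alternatives).

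**Figure D5:**
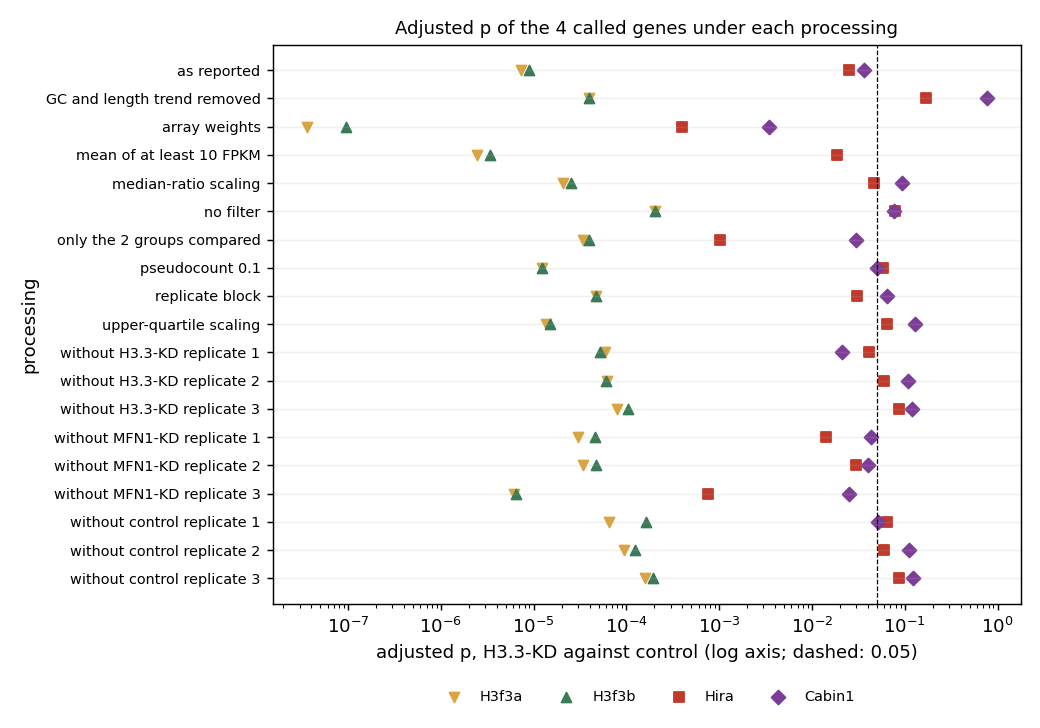
Adjusted p (horizontal, log axis) of the 4 genes called in H3.3-KD against control under each processing (vertical), with a dashed line at 0.05. *H3f3a* and *H3f3b* stay at or below 0.000203, while *Hira* spans 0.000401 to 0.168 and *Cabin1* spans 0.00347 to 0.760 across the line.

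The promoters of *Hira* and *Cabin1* are printed because these were the chaperone genes called in H3.3-KD. They are the 250 bases before the RefSeq start on GRCm38.p6, read on the strand of the gene, and capitals mark matches to the GC box letters GGGCGG or their reverse complement.
Hira, chr16:18876500-18876749, plus strand: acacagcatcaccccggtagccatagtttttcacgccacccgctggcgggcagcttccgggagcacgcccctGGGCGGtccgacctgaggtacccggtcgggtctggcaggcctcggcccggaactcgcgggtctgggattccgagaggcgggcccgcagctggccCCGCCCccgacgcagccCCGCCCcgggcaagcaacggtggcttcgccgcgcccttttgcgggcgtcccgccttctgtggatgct
Cabin1, chr10:75764358-75764607, minus strand: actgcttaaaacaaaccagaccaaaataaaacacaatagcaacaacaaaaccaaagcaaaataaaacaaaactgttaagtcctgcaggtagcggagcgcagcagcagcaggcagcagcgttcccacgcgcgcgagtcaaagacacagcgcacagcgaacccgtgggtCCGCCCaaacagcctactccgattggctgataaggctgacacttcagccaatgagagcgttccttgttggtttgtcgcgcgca
The *Hira* promoter held 3 GC box matches and was 72.4% GC, above 93.6% of the promoters in the table, and the *Cabin1* promoter held 1 and was 51.2% GC, above 45.5%. All 9 members had an entry. A GC box match was found in 6 of them and in 32.7% of all promoters of this length, the letters CCAAT in 7 and in 33.8%, and the letters TATAAA in 1 (*H3f3b*) and in 12.4%, on either strand and with no base shared between matches of different motifs. *Hira* had no CCAAT match and *Cabin1* had 2. A match is a description of the letters only.

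Of the 4 other rows whose symbol starts with H3f3, 3 passed the filter and all 3 were called lower in H3.3-KD, beside 9.12% of all genes. *H3f3c* was at 16.8, 21.1 and 13.8 FPKM in control and at 1.68, 2.12 and 2.68 FPKM in H3.3-KD, and its log2 fold change was -2.52 (adjusted p = 0.000473). The pseudogene *H3f3a-ps1* was at 4.12 to 5.20 FPKM in control and at 0.26 to 0.69 FPKM in H3.3-KD, and its log2 fold change was -1.88 (adjusted p = 0.00138). *H3f3a-ps2* was at 7.96 to 17.0 FPKM in control and at 1.35 to 8.18 FPKM in H3.3-KD, which overlapped, and its log2 fold change of -1.60 (adjusted p = 0.0465) was called in 8 of 17 alternatives. In MFN1-KD these rows had log2 fold changes of -0.17, -0.48 and -1.14, none called. *H3f3aos*, which overlaps *H3f3a* on the other strand, was at or below 0.34 FPKM in every library. Reads of *H3f3c* cannot be fully told apart from those of *H3f3a*, as its sequence shows. Of the windows of *H3f3a-ps2*, 2.29% were found in *H3f3a* and 37.0% in Gm12657. No window of 150 bases of *H3f3a-ps1* was found in another gene, although 54.3% of its windows of 50 bases were. Whether shared reads account for the falls of these rows was not tested.

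Other genes of the H3.3 pathway were described by a list of 20: further H3 chaperones and helicase or replication factors that bind H3-H4 (*Asf1b*, *Nasp*, *Mcm2*, *Dek*, *Rpa1*, *Rpa2*, *Rpa3*), remodelers (*Ep400*, *Chd1*, *Chd2*), nuclear body and silencing factors (*Pml*, *Sp100*, *Trim28*, *Setdb1*), and enzymes or readers that act on H3 or H3.3 (*Zmynd11*, *Chek1*, *Aurkb*, *Setd2*, *Nsd2*, *Nsd1*). All but *Sp100* passed the filter. In H3.3-KD 4 of 19 were called higher and 1 lower, beside 21.8% and 9.12% of all genes, so the share called higher was near the background, with a median log2 fold change of 0.43 beside 0.26 for all genes. The remodeler *Chd1* was at 13.4 to 21.7 FPKM in control and at 40.5 to 58.2 FPKM in H3.3-KD, and its log2 fold change was 1.43 (adjusted p = 0.00714), a change called in all 18 alternatives. *Ep400*, which encodes the ATPase of the p400 remodeling complex, changed by 1.19 on the log2 scale (adjusted p = 0.0193) and was called in 11 of 17 alternatives, with an adjusted p of up to 0.115. *Setd2*, the methyltransferase that makes H3K36me3, was at 70.0 to 126.7 FPKM in control and at 38.8 to 52.2 FPKM in H3.3-KD, and its log2 fold change was -1.01 (adjusted p = 0.0134), a change called in all 18 alternatives. The other 2 called higher, *Mcm2* and *Pml*, are named after their values were seen and had log2 fold changes of 1.47 and 1.30. They were called in 12 of 18 and 7 of 17 alternatives, with an adjusted p of up to 0.151 and 0.560.

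In MFN1-KD 1 of 19 genes of that list was called higher and 1 lower, beside 1.15% and 2.2% of all genes, with a median log2 fold change of 0.11 beside -0.08 for all genes. *Nasp*, a chaperone of soluble H3-H4, was at 275 to 367 FPKM in control and at 464 to 662 FPKM in MFN1-KD, and its log2 fold change was 0.94 (adjusted p = 0.0444). *Rpa2*, a subunit of the single-stranded DNA binding complex RPA, was at 95.2 to 121 FPKM in control and at 43.4 to 54.3 FPKM in MFN1-KD, and its log2 fold change was -1.16 (adjusted p = 0.0333). Both calls were near the threshold, since *Nasp* was called in 6 of 18 alternatives and *Rpa2* in 9 of 18, with adjusted p-values up to 0.179 and 0.145. Between the knockdowns 4 of the 19 were called higher and 6 lower in MFN1-KD, beside 11% and 27.6% of all genes, with a median of -0.45 beside -0.39 for all genes. Either scaling turned that balance to 6 higher and 3 lower. The shares of all genes moved as well, to 16.5% higher and 20.7% lower with median-ratio scaling. With upper-quartile scaling they were 18.3% and 18.7%. The 3 with the smallest p were *Rpa2* (log2 difference -1.59, adjusted p = 0.000304), *Setd2* (1.62, adjusted p = 0.000886) and *Nasp* (1.19, adjusted p = 0.00159).

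The genes whose profile over the 9 libraries was most like that of each member were found by the root mean square difference of log2(FPKM + 1) after centring each gene on its own mean, among genes averaging 10 FPKM or more. *H3f3a* and *H3f3b* were each other's nearest gene, at 0.22 log2 units, and both are targets of the same siRNA treatment. The next for both was *mt-Nd3*, a mitochondrially encoded subunit of complex I, at 0.29 from *H3f3a* and 0.44 from *H3f3b*. Its FPKM was 3322 to 6435 in control, 244 to 284 in H3.3-KD and 2590 to 3172 in MFN1-KD. For *Hira* the nearest were the pseudogene *Rbpj-ps3* at 0.21 and *Eya3*, which encodes a phosphatase and coactivator, at 0.27. *Eya3* was at 5.16 to 8.27 FPKM in control and at 23.2 to 32.3 FPKM in H3.3-KD, and like *Hira* it was lowest in MFN1-KD replicate 3, at 0.31 FPKM. *Cabin1* was nearest to *Ranbp10* at 0.19 and *E330014E10Rik* at 0.21, and *Daxx* to *Sf3b3* at 0.22 and *Tmem87a* at 0.25. *Ubn1* was nearest to *Cab39* and *Chka*, both at 0.16, and *Ubn2* to *Rdx* at 0.24 and *Uchl1* at 0.27. The flattest profiles had the closest neighbours, which the measure favours because differences were not scaled to each gene's own deviation. *Asf1a*, whose own root mean square deviation was 0.21, was nearest to *Pmpcb* at 0.06 and *Lypla1* at 0.12, and *Atrx*, with a deviation of 0.30, was nearest to *Trip13* at 0.11 and *Eif2s3x* at 0.12. These likenesses are descriptions over 9 libraries of 3 treatments.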

How the data were processed

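Reads were trimmed with cutadapt 1.16 and mapped to mm10 with STAR by the authors, who tested them with Deseq2, and the deposited values are FPKM per gene symbol, rounded to 2 decimals. The program behind FPKM, its annotation and its strand setting are not given in the sources used here, and depth was estimated as described above. No counts were used, so the count test could not be run. Instead log2(FPKM + 1) was tested with limma 3.58.1 in R 4.3.3 (robust, with an intensity trend) in a single fit of the 9 libraries as 3 groups, without covariates, over genes averaging 1 FPKM or more. Python 3.11.15 was used for everything else. The pipeline was tested on simulated data. The members, the lists and the tests were chosen with earlier results of these data known. Named were all members, up to 3 called genes of the list of 20 per comparison by smallest p, the 2 nearest profiles of each member, other rows starting H3f3, and *Mfn1*. As alternatives, libraries were rescaled by median ratios or by upper quartiles, the filter was dropped or raised to 10 FPKM, and the pseudocount was lowered to 0.1. Others were a fit of only the groups compared, the replicate number as a block, removal of each library's GC and length trend, array weights, and leaving out each library.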

Additional observations from a re-analysis of the deposited data

How the results depend on the processing

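Of the members, the calls of *H3f3a* and *H3f3b* in H3.3-KD held under every alternative run. No member was called in MFN1-KD against control under any alternative, but some alternatives could call almost no gene. Without control replicate 2 or 3 they called 0% of all genes in either direction, and with no filter 0% higher and 0.00612% lower. *Mfn1* itself was called in 8 of 18, so the absence of calls does not show that the members were unchanged. Members called higher in H3.3-KD (2 as reported) numbered 1 with median-ratio scaling, a mean of at least 10 FPKM (6 members tested) and the replicate block, 0 with upper-quartile scaling, no filter, a pseudocount of 0.1 and the GC and length trend removed, 4 with array weights, and 0 to 2 without one library. The share of all genes called higher moved too, from 21.8%. It was 16.2% with median-ratio scaling, 26.8% with a mean of at least 10 FPKM, 21.0% with the replicate block and 14.3% with upper-quartile scaling. It was 8.02% with no filter, 18.9% with a pseudocount of 0.1 and 11.6% with the trend removed. With array weights it was 36.4%, so 4 of 9 was near that share. Without one library it was 13.5% to 26.5%. Members called lower in MFN1-KD against H3.3-KD numbered 1 with a mean of at least 10 FPKM or the trend removed. All genes called lower were then 32.9% and 13.9%. Members called higher (2) numbered 3 with upper-quartile scaling, beside 18.3% of all genes.

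Of the 20 further genes, those called higher in H3.3-KD (4) numbered 2 with upper-quartile scaling, no filter or a mean of at least 10 FPKM, 1 with the trend removed, 8 with array weights and 1 to 5 without one library, and those called lower (1) numbered 3 with median-ratio scaling, 4 with upper-quartile scaling, 2 with the trend removed or array weights, and 1 to 2 without one library. The shares of all genes called higher are those given for the members, such as 36.4% with array weights. All genes called lower were 13.7% and 15.2% with the 2 scalings, 12.2% with the trend removed and 17.3% with array weights. Without one library they were 5.11% to 12.5%. In MFN1-KD the 1 higher and 1 lower each became 0 with no filter, only the 2 groups, the replicate block or the trend removed, 2 were lower with either scaling, a mean of at least 10 FPKM or array weights, and each numbered 0 to 1 without one library. Over all genes the shares called higher and lower were 0% and 0.00612% with no filter and 0.00818% and 0.0164% with only the 2 groups. They were 0.0461% and 0.192% with the block and 0.882% and 1.47% with the trend removed. All genes called lower were 2.65% and 2.64% with the 2 scalings and 6.33% with array weights. With a mean of at least 10 FPKM they were 7.06%. Without one library 0% to 1.13% were called higher and 0% to 3.97% lower. Between the knockdowns 3 were lower (6) with either scaling, no filter or the trend removed, and 3 to 6 without one library, and those higher (4) numbered 6 with either scaling, 3 with no filter or the trend removed and 2 to 4 without one library. All genes called lower were 20.7% and 18.7% with the 2 scalings, 11.3% with no filter and 13.9% with the trend removed. Those called higher were 16.5%, 18.3%, 3.24% and 14.3% in that order. Without one library 21.2% to 29.7% were lower and 8.40% to 12.0% higher.

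The H3.3 sum was 5.96% of control in H3.3-KD with upper-quartile scaling. In MFN1-KD it was 87.5% and 86.9% with the 2 scalings and 80.3% to 86.9% without one library.

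Sign changes of log2 fold changes that were not called were as follows. In H3.3-KD against control *Asf1a* was 0.11 and *Daxx* -0.36 with the trend removed, *Atrx* was -0.15 and -0.24 with the 2 scalings, and *Asf1a* was -0.26 to 0.0682 without one library. In MFN1-KD against control *Daxx* was 0.0115 with median-ratio and 0.0127 with upper-quartile scaling, 0.23 with the trend removed, 0.29 with array weights and -0.41 to 0.58 without one library, and *Atrx* was -0.17 with the trend removed. Between the knockdowns *Ubn1* was 0.0896, *Ubn2* -0.30, *Asf1a* -0.0227, *Daxx* 0.58 and *Atrx* -0.59 with the trend removed, and *Ubn2* was -0.16 to 0.59 without one library. Beyond what is given by construction, the cause was not tested.

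It cannot be told from these values whether the replicate numbers pair the libraries. Same-numbered libraries of different groups correlated by -0.05 to 0.16 in their deviations from the group means, over 0.1 in 2 of 9 pairs. Libraries of different numbers correlated by -0.12 to 0.07. With 3 libraries a group, correlations this weak do not decide whether same-numbered libraries shared a batch. Given the spread between the 3 libraries of a group, small changes of the low chaperones could not be detected. A 95% interval that left out 0 was not enough for a call. For *H3f3a* in MFN1-KD against control it was -0.96 to -0.08, with an adjusted p of 0.153 (limma).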
